A study of Drosophila melanogaster with 4 samples.

Results

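The centromere-proximal 3 Mb of the assembled X chromosome arm of Drosophila melanogaster was examined for regions enriched in HP2. These regions, here called clusters, were taken from the combined list that the authors made for the replicate set. A cluster belonged to the proximal 3 Mb when it lay on the X with its midpoint between position 19422828 and the end of the arm at 22422827, on FlyBase release 5. Of the 12660 clusters in the combined list, 234 met this rule, and 1880 lay on the rest of the X.

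The study mapped HP2 by chromatin immunoprecipitation with sequencing (ChIP-seq) in nuclei of wild-type Oregon-R larvae at the third instar, with an antibody named Ab2-90. There were 2 ChIP libraries and 2 input libraries, and all 4 shared strain, genotype and stage. Each input served the cluster list of the ChIP library with the same number, so no treated group was compared with an untreated one. The labels do not say that the replicates are separate collections, and the spread between them may be technical.

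HP2 is encoded by Su(var)2-HP2 and is a partner of HP1a in chromatin. HP1a, the founding heterochromatin protein, binds histone H3 methylated at lysine 9 and is concentrated in the repeat-rich chromatin around centromeres. The fly X has its centromere near one end, and the proximal part of its assembled sequence leads from gene-rich euchromatin towards pericentric heterochromatin, much of which is not joined to the arm. This stretch of the X is known for housing the flamenco locus, a source of small RNAs that silence transposable elements. No gene positions on release 5 were used here, so the clusters are described by position alone.

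The proximal 3 Mb of the X was not more densely covered by HP2 clusters than the rest of the X in either replicate. Cover, the percentage of the sequence that lies under clusters, was 3.02% in the proximal 3 Mb against 4.34% in the rest of the X in replicate 1. In replicate 2 it was 11.2% in the proximal 3 Mb and 11.7% in the rest of the X. The ratio of proximal to remaining cover was 0.70 in replicate 1 and 0.96 in replicate 2, with a mean of 0.83 ± 0.19 (SD, n = 2). Both replicates lay below 1, but the exact two-sided sign-flip permutation test over the 2 libraries gave p = 0.5, which is the smallest p it can reach. The replicates fell on either side of 1 under 4 alternatives, with an exact sign-flip permutation p of 1. The mean ratio was then 0.88 among the higher-scoring 50% of clusters, 0.89 with replicate lists of equal length, 0.87 against the rest of the X without its left 3 Mb, and 0.97 without the last 500 kb of the arm, a choice made after seeing the data. The same limit on p holds for every comparison between parts of the genome here.

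The proximal window also held fewer clusters for its length. Replicate 1 had 49 clusters there, or 16.3 per Mb, against 21.8 per Mb in the rest of the X. Replicate 2 had 132 clusters, or 44.0 per Mb, against 49.9 per Mb. The combined list had 78.0 per Mb in the proximal window and 96.8 per Mb in the rest of the X. The cover of the proximal 3 Mb in replicate 2 was 3.73 times that in replicate 1, while for the rest of the X it was 2.69 times. The difference between the libraries was therefore larger than that between the proximal window and the rest of the X, and the depth of the libraries is unknown.

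Along the X, consecutive windows of 3 Mb counted from the proximal end had similar cover. The proximal window ranked 7 of 7 full windows in replicate 1, at 3.02%, where the other 6 ranged from 3.60% to 4.75%. In replicate 2 it ranked 6 of 7, at 11.2%, within the range of 9.07% to 13.1% of the other windows. The cover of the last 3 Mb thus lay at the low end of the X without standing clear of it in replicate 2.

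**Figure D1:**
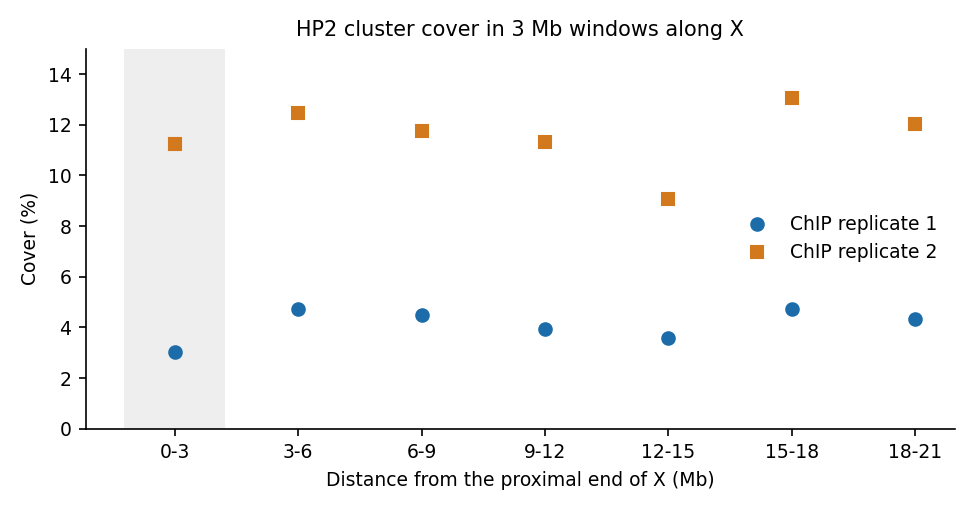
Cover by HP2 clusters (%) in the 7 full windows of 3 Mb along the X, by distance from the proximal end in Mb. Circles are ChIP replicate 1 and squares ChIP replicate 2, and the shaded window is the proximal 3 Mb, which had 3.02% and 11.2% of its sequence under clusters.

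The other chromosome arms differed from the X in how the cover of their proximal end compared with that of the rest of the arm. The ratio of cover in the proximal 3 Mb to that in the rest of the same arm was 0.70 and 0.96 on the X in replicates 1 and 2. On 3R, the arm closest to the X in this ratio, it was 1.36 and 1.60. It was 3.49 and 3.77 on 2L, 3.85 and 4.83 on 3L, and 5.72 and 4.40 on 2R. On the log2 scale the ratio of the X minus that of 3R was -0.85 ± 0.17. Against 2L the difference was -2.15 ± 0.25, against 3L -2.40 ± 0.10 and against 2R -2.62 ± 0.60 (SD, n = 2). Each of these differences exceeded the spread between the replicates and had the same sign in both, with an exact sign-flip p of 0.5. The ratios depend on the rest of each arm as well as on its proximal end. On 3R the proximal cover was 6.10% and 12.5% and that of the rest 4.48% and 7.80%. The X had 3.02% and 11.2% in the proximal 3 Mb and 4.34% and 11.7% in the rest. In replicate 2 the X and 3R were thus closer in proximal cover than in the cover of the rest. Proximal cover was 15.5% and 30.1% on 2L, 18.1% and 39.8% on 3L, and 34.4% and 50.0% on 2R.

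The contrast between arms was also present in the 500 kb at the proximal end of each arm, a comparison added after the profile had been seen. The last 500 kb of the assembled X had a cover of 0.43% in replicate 1 and 1.93% in replicate 2. The corresponding 500 kb of 3R was covered to 7.95% and 20.8%, that of 3L to 21.7% and 62.3%, that of 2L to 46.8% and 80.0%, and that of 2R to 60.6% and 78.3%. Which bases could be mapped is unknown from cluster lists, and low cover alone is no measure of missing HP2.

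**Figure D2:**
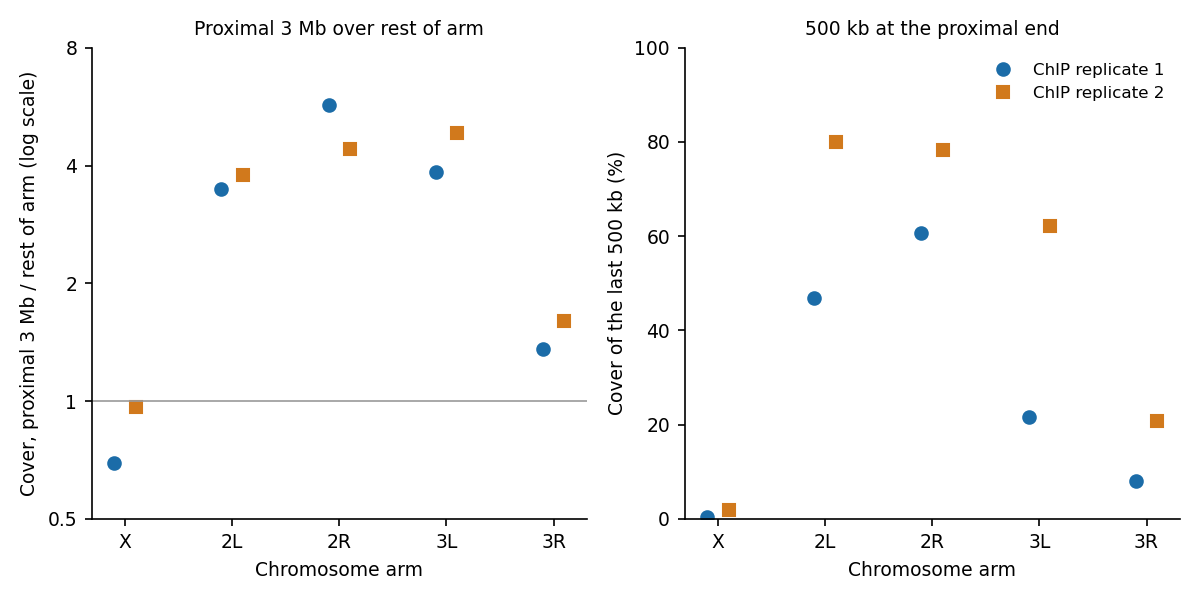
Left, ratio of HP2 cluster cover in the proximal 3 Mb to that in the rest of the arm, on a log axis, for 5 chromosome arms. Right, cover (%) of the 500 kb at the proximal end of each arm. Circles are ChIP replicate 1 and squares ChIP replicate 2. The X lay at 0.70 and 0.96 on the left and at 0.43% and 1.93% on the right, the lowest of the 5 arms in both replicates.

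Within the proximal 3 Mb of the X the cover was uneven, with sparse and dense stretches in alternation. Going outward from the proximal end in steps of 500 kb, the cover in replicate 1 was 0.43%, 6.10%, 3.50%, 1.21%, 1.84% and 5.02%. In replicate 2 it was 1.93%, 23.9%, 7.85%, 1.50%, 8.91% and 23.4%. The windows from 500 to 1000 kb and from 2500 to 3000 kb were the densest in both replicates. Together they held 61.4% of the covered bases of the proximal 3 Mb in replicate 1 and 70.1% in replicate 2. The windows from 0 to 500 kb and from 1500 to 2000 kb held 9.07% and 5.08%.

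These extremes were set against the 44 full windows of 500 kb on the X. The most proximal window, from position 21922828 to 22422827, ranked 44 of 44 by cover in replicate 1 and 43 of 44 in replicate 2. The window from 20422828 to 20922827 ranked 41 in replicate 1 and 44 in replicate 2. The dense window from 21422828 to 21922827 ranked 7 in replicate 1 and 2 in replicate 2, and that from 19422828 to 19922827 ranked 15 and 3. The densest window of 500 kb on the X was not proximal, and had 11.1% and 26.9% of its sequence under clusters. The proximal 3 Mb thus held the sparsest window of 500 kb on the X in each replicate but not the densest.

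At a resolution of 100 kb, 10 of the 30 proximal windows were empty in replicate 1, and 43 of 194 windows on the rest of the X. In replicate 2, 9 of the 30 proximal windows and 18 of the 194 others were empty. As a share this was 33.3% of the proximal and 22.2% of the other windows in replicate 1, and 30.0% of the proximal and 9.28% of the other windows in replicate 2. The 30 proximal windows ranked alike by cover in both replicates, with Spearman's rho of 0.89, against 0.80 over the 194 windows of the rest of the X. Empty windows tie in rank and made up a larger share of the proximal windows, so these values of rho are not directly comparable. How far they rest on empty windows was not tested. These values describe windows of 2 libraries, which share the sequence and its mappability, and neighbouring windows are not independent.

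**Figure D3:**
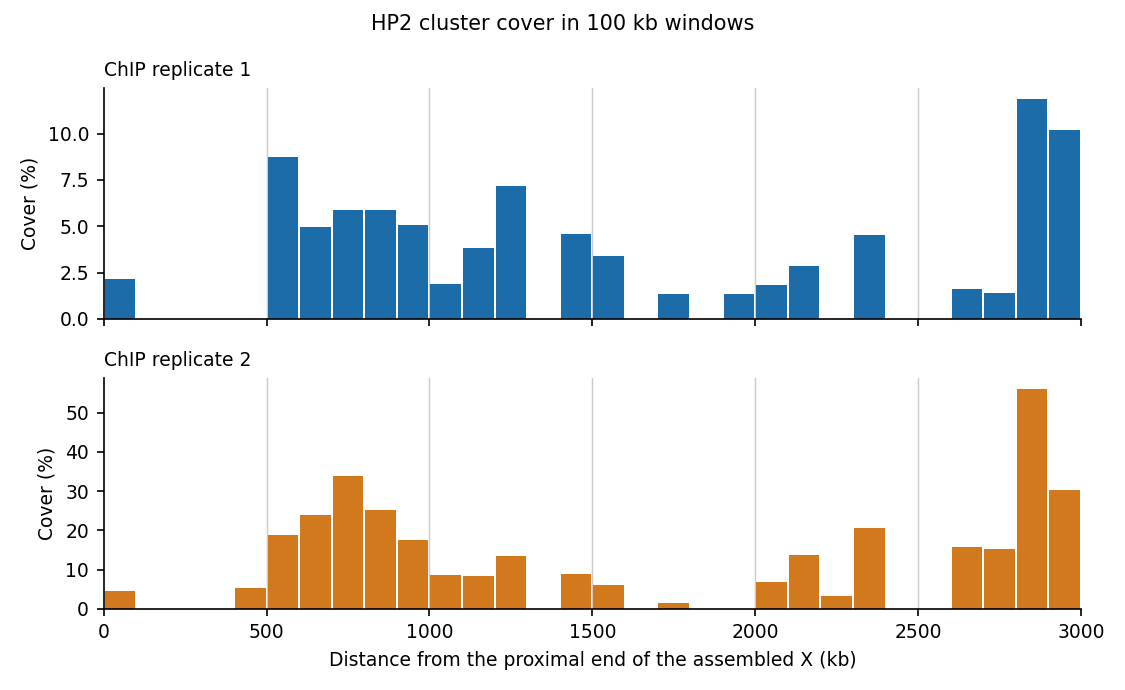
Cover by HP2 clusters (%) in 30 windows of 100 kb, by distance from the proximal end of the assembled X in kb. The upper panel is ChIP replicate 1 and the lower ChIP replicate 2, each on its own scale, and vertical lines mark steps of 500 kb. Both panels show a dense stretch from 500 to 1000 kb, another near 3000 kb, and a cover of 0 from 100 to 400 kb.

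The window of 100 kb with the highest mean cover ran from 19522828 to 19622827. Its cover was 11.9% in replicate 1 and 56.0% in replicate 2, and it ranked 14 and 1 among all 224 full windows of the X. Its outer neighbour, from 19422828 to 19522827, was covered to 10.2% and 30.3%. The next 3 windows by mean cover adjoined each other in the inner dense stretch. The window from 21622828 to 21722827 had 5.86% and 33.8%, that from 21522828 to 21622827 had 5.89% and 25.2%, and that from 21722828 to 21822827 had 4.94% and 24.0%. Replicate 2 ranked all 5 windows within the first 26 of the X, while replicate 1 ranked these last 3 between 55 and 79.

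The longest stretches of the X without any cluster lay in the proximal 3 Mb. In replicate 1 the longest gap ran for 529 kb, from 21884865 to 22414084, and in replicate 2 for 449 kb, from 21942994 to 22391810. Each was the longest of its list on the X, and the longest gaps in the rest of the X were 371 kb and 348 kb. In the combined list the longest gap of the X was elsewhere in the window, at 154 kb from 20995871 to 21149975, against 148 kb at most in the rest of the X. The median gap differed in opposite directions in the replicates. In replicate 1 it was wider, at 20.7 kb in the proximal window and 15.8 kb in the rest of the X, and in replicate 2 it was narrower, at 3.69 kb in the proximal window and 5.83 kb in the rest of the X.

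The most proximal 500 kb was not entirely without clusters. The combined list placed 17 there, of which 1 was overlapped in both replicates, 4 only in replicate 2 and 12 in neither. The cluster closest to the end, at 22413774 to 22416656, was 2.88 kb wide and 7.61 kb from the end of the sequence. It was the one found in both replicates, with a combined score of 0.631 and scores of 0.694 in replicate 1 and 0.807 in replicate 2. It was also the single replicate 1 cluster of that window. The score is the authors' own value for each cluster, and since no source used here states its scale, it served only for ranking within a list.

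Each combined cluster was compared with the replicate lists, and an overlap of at least 1 bp was counted. Of the 234 proximal clusters, 41 overlapped clusters in both replicates, or 17.5% (exact 95% binomial interval 12.9 to 23.0%), against 329 of 1880 or 17.5% (15.8 to 19.3%) on the rest of the X. Over all combined clusters the share was 22.3%. A further 83 proximal clusters overlapped replicate 2 only, or 35.5% (29.3 to 42.0%), where the rest of the X had 32.3% and the whole list 29.9%. Only 5 overlapped replicate 1 alone, or 2.14% (0.70 to 4.92%), against 2.93% on the rest of the X and 3.82% of the whole list. The remaining 105, or 44.9% (38.4 to 51.5%), overlapped neither, against 47.2% on the rest of the X and 43.9% of the whole list. All 4 shares of the rest of the X fell inside the intervals of the proximal window. The intervals reflect counting error alone and treat neighbouring clusters as independent.

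The counts rested mainly on replicate 2. Taken alone, replicate 2 overlapped 124 of the 234 proximal clusters, or 53.0%, where it overlapped 49.8% on the rest of the X and 52.2% of all combined clusters. Replicate 1 overlapped 46, or 19.7%, close to the 20.4% on the rest of the X, against 26.2% of all combined clusters. On the other arms the share found in both replicates in the proximal 3 Mb was 23.8% on 3R, 31.3% on 2L, 37.0% on 3L and 40.3% on 2R.

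Proximal clusters found in both replicates were the widest. Their median width was 4.09 kb, with a range of 1.63 to 9.44 kb. Those found in replicate 2 only had a median of 2.00 kb, those found in replicate 1 only 1.86 kb, and those found in neither 1.22 kb. This order was not particular to the proximal window. The medians in the same order were 3.32, 1.95, 1.715 and 1.23 kb on the rest of the X. Over all combined clusters they were 3.71, 1.99, 1.80 and 1.22 kb. The narrowest proximal clusters, in the replicate 2 only group and the group found in neither, measured 1.01 kb and 1.00 kb. Wider clusters have more sequence in which an overlap can fall, so width and overlap are not independent. The lists also differ in their narrowest cluster, which measured 1.00 kb in the combined list and 1.30 kb in each replicate list. The median width of the group found in neither, 1.22 kb, lay below the latter. Whether this bears on the overlaps was not tested. Replicate 1 covered a median of 48.2% of the bases of the 41 clusters found in both, and replicate 2 a median of 91.5%. In replicate 2, 22 of the 41 were covered to at least 90%, and in replicate 1 only 2.

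Most replicate 1 clusters in the proximal window recurred in replicate 2, but most replicate 2 clusters did not recur in replicate 1. All 49 replicate 1 clusters lay on combined clusters, and so did 128 of the 132 replicate 2 clusters. Replicate 2 overlapped 43 of the 49, or 87.8% (75.2 to 95.4%), against 83.3% on the rest of the X and 86.0% of the whole list. In the other direction 41 of 132 replicate 2 clusters, or 31.1% (23.3 to 39.7%), were overlapped by replicate 1, against 34.7% on the rest of the X and 41.7% of the whole list. Across the 43 overlapping pairs the replicate 2 cluster was the wider in 39, at a median of 1.63 times the width of its partner. On the rest of the X it was the wider in 307 of 353 pairs, at a median of 1.29 times. Scores of these 43 pairs had Spearman's rho of 0.57, and those of the 353 pairs on the rest of the X 0.61, as a description of clusters that share 2 libraries.

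By width the proximal clusters resembled those on the rest of the X, while their median score was somewhat higher in each list. Their median width in the combined list was 1.69 kb against 1.65 kb. Replicate 1 clusters measured 1.61 kb in the proximal window and 1.90 kb on the rest of the X, and replicate 2 clusters 2.00 kb in the proximal window and 1.97 kb on the rest of the X. The difference in width therefore changed sign between the replicates. The median combined score was 0.447 in the proximal window and 0.419 on the rest of the X. Replicate 1 had medians of 0.597 in the proximal window and 0.586 on the rest of the X, and replicate 2 of 0.655 and 0.622. The upper quartile of the combined scores was 0.541 in the proximal window, against 0.479 on the rest of the X. Among the 7 full windows of 3 Mb on the X, the proximal window ranked 1 by median score in all 3 lists. In replicate 1 the next window, from 16422828 to 19422827, was close behind at 0.595. The combined list was made for the same replicate set, so the 3 lists are not independent. On the other arms the median combined score in the proximal 3 Mb and in the rest was 0.498 and 0.351 on 3L. It was 0.444 and 0.357 on 2R, 0.397 and 0.354 on 2L, and 0.343 and 0.355 on 3R.

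High scores were concentrated in 1 of the 6 proximal windows of 500 kb. Of the 234 proximal clusters, 16 or 6.84% (3.96 to 10.9%) belonged to the highest-scoring 10.0% of the combined list. On the rest of the X this share was 62 of 1880 or 3.30% (2.54 to 4.21%). The proximal share was thus above that of the rest of the X but below the 10.0% of the whole list. In the proximal 3 Mb of the other arms it was 3.90% on 3R, 15.9% on 2L, 16.5% on 3L and 23.0% on 2R. The dense window of the X from 500 to 1000 kb held 10 of its 16 proximal clusters of this kind. The outer dense window, from 2500 to 3000 kb, held 3, although it had more clusters, 68 against 59. By replicate, 7 of the 16 were found in both, 5 in replicate 2 only and 4 in neither.

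The window from 21422828 to 21922827 had the highest median score of all 44 windows of 500 kb on the X in each of the 3 lists. In the combined list its 59 clusters had a median of 0.634, with quartiles of 0.420 and 0.886, and the medians of the other 43 windows ranged from 0.384 to 0.464. In replicate 2 its 40 clusters had a median of 0.943, and the other windows ranged from 0.542 to 0.710. In replicate 1 its 15 clusters had a median of 0.767, against a range of 0.502 to 0.731. The outer dense window ranked 6 by median score among combined clusters, 43 in replicate 1 and 16 in replicate 2. The 2 stretches of high cover within the proximal 3 Mb thus differed in score, a description for which no test over 2 libraries can pass 0.5.

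**Figure D4:**
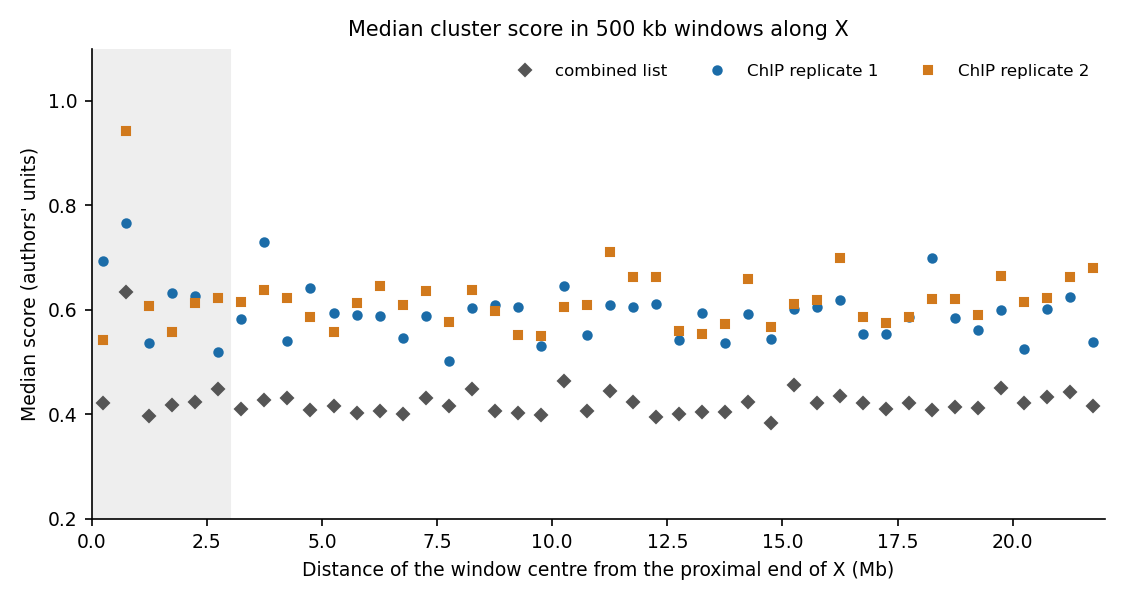
Median HP2 cluster score, in the authors' units, in the 44 full windows of 500 kb along the X, by distance of the window centre from the proximal end in Mb. Diamonds are the combined list, circles ChIP replicate 1 and squares ChIP replicate 2, and the proximal 3 Mb is shaded. The window from 0.5 to 1 Mb is the highest in every list, at 0.634, 0.767 and 0.943. Scores are not comparable between lists.

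This window contained a run of 6 neighbouring combined clusters within 23.4 kb, from 21758880 to 21782276, picked out after their values were seen. Their combined scores ran from 0.964 to 2.63. Replicate 2 had 6 clusters in the run, with scores of 1.81 to 4.09, and the highest, at 21769677 to 21771047, ranked 1 of the 1101 replicate 2 clusters on the X. Replicate 1 had a single cluster in the run, at 21766987 to 21768349, with a score of 2.64, and it ranked 1 of its 473 clusters on the X. The highest-scoring cluster of the X in either replicate thus lay within this run, although the 2 did not overlap each other. Without the run the median score of the window was 0.618 for combined clusters and 0.852 in replicate 2, still above all other windows. For replicate 1 it was 0.708, which is below the 0.731 of the highest other window.

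Among the proximal clusters found in both replicates, the highest combined score was 1.73, at 21765970 to 21768794 within the run. This cluster was 2.83 kb wide, and its partners scored 2.64 in replicate 1 and 2.14 in replicate 2. The second, at 20058486 to 20064030, was 5.55 kb wide and scored 1.64, with 1.21 in replicate 1 and 2.19 in replicate 2. It lay in the window from 2000 to 2500 kb, apart from both dense stretches. The third, at 21499206 to 21503926, scored 1.57, with 1.45 and 1.81 in the replicates.

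The fourth and the sixth lay in the outer dense stretch. The cluster at 19529000 to 19534748 had a combined score of 1.31, with 1.19 in replicate 1 and 1.76 in replicate 2. That at 19456478 to 19461446 scored 1.09 and contained 2 replicate 1 clusters and 1 replicate 2 cluster. The fifth, at 21581898 to 21585988, scored 1.11, with 0.646 in replicate 1 and 1.52 in replicate 2.

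The remaining 4 of the 10 highest scored between 0.887 and 1.07. They lay at 21796328 to 21805764, 21403248 to 21405502, 21603844 to 21606484 and 21193712 to 21196672. The first of these was also the widest proximal cluster, at 9.44 kb. Replicate 1 covered 16.0% of it with a narrow cluster that scored 2.00, and replicate 2 covered 79.6% of it with a score of 1.36. Both replicates therefore marked this region, but over different lengths.

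Wide clusters were few. Of the proximal clusters, 14 or 5.98% exceeded 5 kb, against 74 or 3.94% on the rest of the X. The share over all combined clusters was not counted. Of the 14 proximal clusters, 11 were found in both replicates and 3 in replicate 2 only. After the widest came clusters of 9.06 kb at 21673256 to 21682310 and 8.83 kb at 19584166 to 19592994, both found in both replicates with combined scores of 0.704 and 0.691. The next were clusters of 7.62 kb at 21594846 to 21602466 and 7.37 kb at 19538576 to 19545944, which replicate 2 covered to 97.7% and 90.3% and replicate 1 did not overlap. All 5 lay in the 2 dense stretches. The widest cluster of the proximal 3 Mb measured 76.1 kb on 2R, 38.3 kb on 2L, 36.3 kb on 3L and 10.8 kb on 3R. The upper quartile of combined cluster width in the proximal 3 Mb was 2.66 kb on the X. It was 2.45 kb on 3R, 3.89 kb on 2L, 5.50 kb on 3L and 5.67 kb on 2R.

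The highest scores in the window did not belong to clusters found in both replicates, and the same held outside it. On the rest of the X the highest score was 3.05 among clusters found in neither and 2.42 among those found in both. Over all combined clusters these were 4.05 and 2.54. Above all 41 proximal clusters found in both stood 3 other proximal clusters. The top score, 2.88, was that of a cluster of 1.00 kb at 21625152 to 21626152 that neither replicate list contained. The next neither cluster, at 22313280 to 22314298, was 1.02 kb wide, scored 1.60 and lay in the sparse most proximal 500 kb. The third, at 20169806 to 20170926, was 1.12 kb wide and scored 1.19. All 3 neither clusters were narrower than the narrowest cluster of either replicate list, 1.30 kb. The top-scoring one had the minimum width of the combined list. The highest clusters found in replicate 2 only, at 21758880 to 21760876, 21769802 to 21771054 and 21761398 to 21763754, scored 2.63, 2.34 and 1.63, with 2.58, 4.09 and 2.04 in replicate 2, and all 3 belonged to the run.

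All 5 clusters found in replicate 1 only had combined scores under 0.5. The 3 highest were at 20720422 to 20722278, 20435688 to 20437348 and 20989210 to 20991126, with combined scores of 0.473, 0.441 and 0.364 and replicate 1 scores of 0.893, 0.755 and 0.491. The first 2 lay in the sparse window from 1500 to 2000 kb, where replicates 1 and 2 had 4 clusters each.

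**Figure D5:**
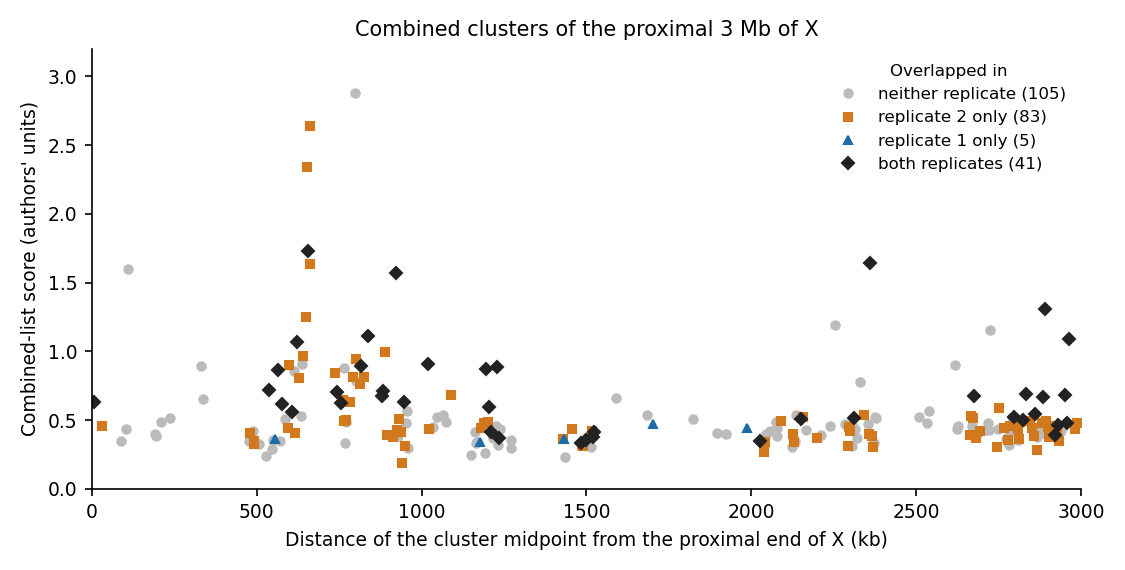
Combined-list score (authors' units) of the 234 proximal clusters by distance of the midpoint from the proximal end of the X in kb. Marks give the replicate lists that overlap each cluster, with 41 in both, 83 in replicate 2 only, 5 in replicate 1 only and 105 in neither. Most scores above 1 lie between 500 and 1000 kb, and 3 clusters exceed the 1.73 of the highest cluster found in both.

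The border of the window did not cut a cluster. The nearest cluster inside it, at 19433518 to 19434916, scored 0.476 and was found in replicate 2 only. The nearest outside it, at 19420830 to 19421986, scored 0.391 and was found in neither replicate.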

How the data were processed

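HP2 ChIP-seq was analysed from 3 deposited cluster lists, 1 for each ChIP replicate and 1 for the replicate set. The authors deposited a start, an end and a score for each region of significant enrichment, on FlyBase release 5 per the file headers. Reads were aligned with Bowtie 0.12.7, per the submitters' processing notes. No source used here states the region caller, its threshold, the scale of the score or how replicates were combined. The lists hold no read counts, so depth is unknown, and input reads bear on the values solely via the authors' calls.

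Clusters were assigned by midpoint. Cover, overlap (at least 1 bp), widths, gaps and within-list scores were computed with Python 3.11.15, numpy 2.4.6, pandas 2.3.3 and SciPy 1.17.1. Coordinates are 1-based. Shares carry exact (Clopper-Pearson) 95% binomial intervals. Ratios of cover were tested over the 2 libraries by an exact sign-flip permutation test. Overlap counting was tested on simulated data. The clusters named are the 10 highest-scoring found in both replicates, the 5 widest, the 3 highest-scoring of each other class, the one nearest the proximal end and those beside the border. The 5 windows of 100 kb with most cover on average are named. The members and rules were chosen with earlier results of these data known. Alternatives were a score threshold, merging within 1 kb, stricter overlaps, windows of 2 and 4 Mb, assignment by any base, a shortened rest of the X, replicate lists of equal length and leaving out each replicate. Genes and sequences at the clusters were not analysed here.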

Additional observations from a re-analysis of the deposited data

How the results depend on the processing

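Of 79 recomputed values, 65 stayed within the spread between replicates, the binomial interval or 1.5 times the count. Some could not leave these limits, so the 65 is no measure of stability. The SD of proximal cover between replicates, 5.82, exceeded the replicate 1 cover of 3.02%, and a fall to 1.65% counted as staying. Leaving out 1 replicate cannot move a mean of 2 beyond their SD, and replicate 1 counts and cover cannot change when only the replicate 2 list is cut. No mean ratio crossed 1 and no median difference changed sign, although the ratio of a single replicate crossed 1 under 4 alternatives. The ratio of proximal to remaining cover ranged from 0.70 to 0.96 when either replicate was left out, stood at 0.70 with a window of 2 Mb and at 0.88 with 4 Mb, and was 0.97 without the last 500 kb, an alternative chosen after seeing the data. In the last case, among the higher-scoring 50% of clusters, with replicate lists of equal length, and against the rest of the X without its left 3 Mb, the replicates fell on either side of 1 and the exact sign-flip permutation p was 1. With the lower-scoring 50% of every list removed, the window held 25 and 74 clusters in replicates 1 and 2, 11.98% of combined clusters were found in both and 56.3% in neither. With a window of 2 Mb there were 30 and 69 clusters. Merging within 1 kb gave 23.2% found in both and a median width 0.423 kb above the rest of the X, in place of 0.048 kb. A reciprocal overlap of 50% left 7.69% found in both and 53.1% of replicate 1 clusters overlapped. Lists of equal length gave 56.4% found in neither and 69.4% of replicate 1 clusters overlapped. With 1 replicate left out, the share overlapped ranged from 19.7% to 53.0% and the share not overlapped from 47.0% to 80.3%. Some of these shifts follow from the setting itself. A list cut to its higher-scoring 50% and a shorter window hold fewer clusters, and with 1 replicate left out the share is that of the other replicate alone. The cause of the remaining shifts was not tested. No paired analysis was possible because the inputs have no lists of their own here and only the ChIP group was analysed.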

Other observations

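Scores were often shared between clusters. Of the 234 proximal clusters of the combined list, 101 had a score that another combined cluster also had, to 9 decimals, and the same held for 37.0% of the whole list. In the replicate lists this was so for 18 of 49 and 47 of 132 proximal clusters, against 24.6% and 28.6% of the whole lists of replicates 1 and 2. The first and the third of the highest clusters found in replicate 2 only, which lie 0.521 kb apart in the run of high scores, differed in combined score by 1.00.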
